A study of Nannochloropsis oceanica strain IMET1 with 6 samples.

Results

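A total of 114 of the 9552 genes in the deposited table were abundant in the wild type of Nannochloropsis oceanica and at least 2 times as abundant in the insertional mutant HLM23. They were chosen by the expression values of both strains: a wild-type (WT) mean of at least 1000 normalised reads, an HLM23 mean of at least 2 times the WT mean, and a lowest HLM23 library above the highest WT library. Of the 3123 genes that reached a WT mean of 1000, 3.65% met the whole rule, and in 19.7% all 3 HLM23 libraries lay above all 3 WT libraries. Abundance here means reads, with no correction for gene length. Because the difference between the strains chose these genes, their levels and ratios are given as a description with no test. Tests were kept for the genes beside them on the chromosomes, which the rule did not choose.

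Messenger RNA was sequenced in 3 libraries of HLM23 and 3 of the WT, both in the background of strain IMET1. HLM23 (genotype NO06G03670-) has lost the function of NO06G03670 through an insertion, at a position the labels do not state, and it was the only mutant line sequenced, so effects of the gene and of the line cannot be told apart. Cultures of both strains were started at an optical density of 0.1, received 16 h of light per day at 600 μmol photons per square metre and second, at 25 °C in air enriched to 0.2% CO2, and were harvested on day 3, 1 h before dark. Nothing in the labels ties a replicate to its own culture, so the spread between replicates may be technical.

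Nannochloropsis is a genus of small marine algae that store much of their carbon as triacylglycerol, a neutral oil. The disrupted gene is known as an APETALA2-like transcription factor gene; in plants, proteins of this family bind DNA and raise or lower the transcription of other genes. Abundant transcripts carry most of the messenger RNA of a cell, so a change in a few of them alters the make-up of the pool more than a large relative change of rare ones. The deposited table pairs no gene with a description, and none of its 9552 IDs matched the 160 genes of the reference table, so no function can be given for the members. They are named by position, with IDs for the gene of the highest ratio and that of the highest level. Coordinates are those of the deposited table, and the genome build behind them is not named there.

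By the step of the deposited values, the implied gene reads ran from 15331673 to 18711316 per library. The check applied did not accept recovered reads in every library, as described below. NO06G03670 (chromosome 6, 1004518 to 1013731, minus strand) read 1073, 982 and 777 in HLM23 and 2164, 1664 and 1682 in the WT, so its transcript was lower but not absent in the mutant. None of the 4 members on chromosome 6 lay near it: the nearest was 140095 bases away.

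The members accounted for 7.89% ± 0.862 (SD, n = 3) of all normalised reads in HLM23, against 3.22% ± 0.539 in WT libraries. The share was 8.86%, 7.20% and 7.61% in HLM23 replicates 1, 2 and 3, against 2.82%, 3.83% and 3.00% in the WT. A bulk culture does not tell more cells using a gene apart from more RNA per cell. Among the 114, WT means ran from 1011 to 41244 normalised reads with a median of 2260, and HLM23 means from 2102 to 118381 with a median of 6117. In the WT, 47 members lay between 1000 and 2000, 49 between 2000 and 5000, 8 between 5000 and 10000, and 10 above that. The median ratio of HLM23 to WT was 2.31, beside 0.929 over all 3123 abundant genes. Most members were thus only moderately above the threshold. The ratio was at least 4 in 8 members, 3 to 4 in 12, 2.5 to 3 in 18 and 2 to 2.5 in 76.

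**Figure D1:**
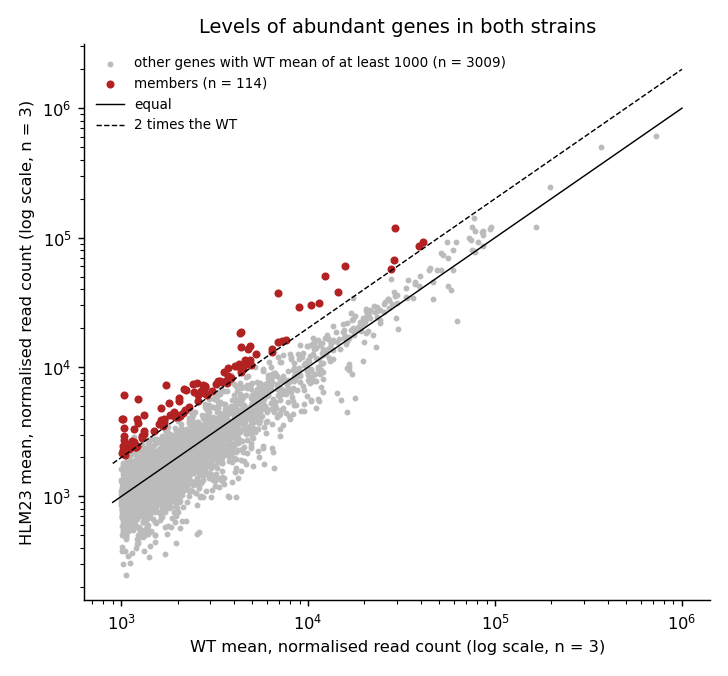
Mean normalised read count of each gene with a WT mean of at least 1000 in the WT (x axis) and in HLM23 (y axis), both on log scales, with n = 3 libraries per strain. The 114 members (red) lie on or above the dashed line of 2 times the WT, and the other 3009 genes (grey) lie around the line of equality.

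The highest ratio was that of NO01G03170, which lies at 836249 to 838318 on chromosome 1 (minus strand). In HLM23 it read 6108, 4321 and 7879, and in the WT 677, 1450 and 989, or 6102 ± 1779 against 1039 ± 389 (SD, n = 3). The HLM23 mean was 5.88 times the WT mean, and the lowest HLM23 library was 2.98 times the highest WT library. Next came the gene on chromosome 25 (400867 to 405888, minus strand), with 42222, 27474 and 42050 in HLM23 against 4325, 9935 and 6536 in the WT, a ratio of 5.37. It combined a high ratio with a high level. A gene on chromosome 2 (1244664 to 1246595) followed with 5985, 4188 and 6786 against 683, 1793 and 1216, a ratio of 4.59. In each of these 3 genes HLM23 replicate 2 was the lowest of its strain and WT replicate 2 the highest of its own.

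The other 7 of the 10 highest ratios lay between 3.87 and 4.28. They belonged to genes on chromosome 13 (786365 to 790641, ratio 4.28), chromosome 20 (211381 to 214100, 4.24) and chromosome 12 (378289 to 380064, 4.19, and 130634 to 136616, 4.11), to NO22G01810 on chromosome 22 (4.07), and to genes on chromosome 15 (372008 to 376036, 3.92) and chromosome 4 (532699 to 535320, 3.87). These genes had little in common in level or size. WT means among the 10 ran from 1011 in the chromosome 15 gene to 29112 in NO22G01810, and gene lengths from 858 bases in the gene at 378289 on chromosome 12 to 6089 in NO22G01810.

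**Figure D2:**
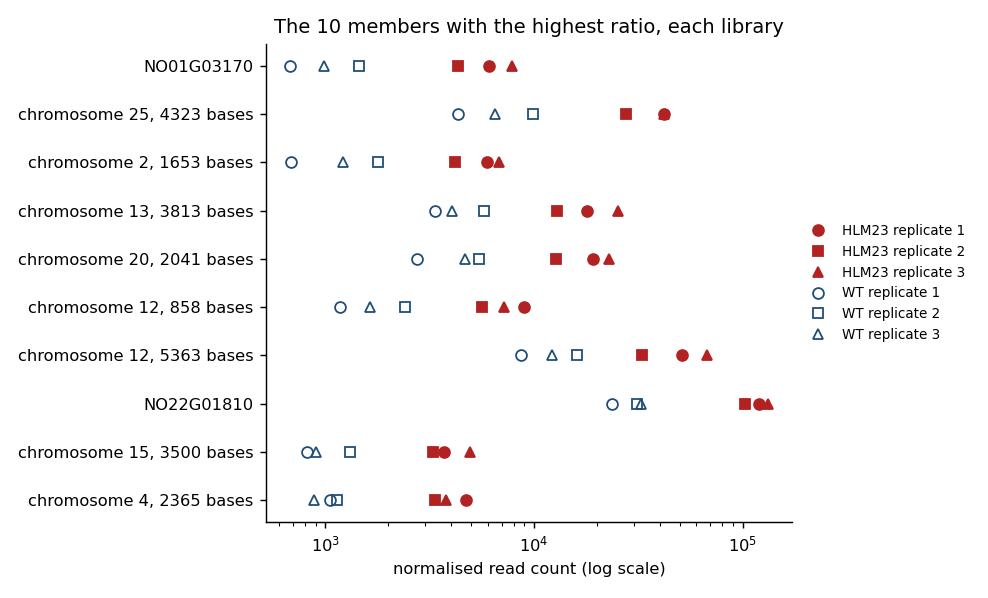
Normalised read count (log scale) in each of the 6 libraries for the 10 members with the highest ratio, ordered from the highest ratio (5.88) to the lowest (3.87); filled red symbols are HLM23, open blue symbols WT, and the shape gives the replicate. In all 10 genes the HLM23 symbols lie to the right of the WT symbols, and the squares of replicate 2 lie towards the middle in most of them.

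By level in HLM23, NO22G01810 led the members; in the WT, genes on chromosomes 27 and 16 were higher. Its span on chromosome 22 runs from 531060 to 543526 (minus strand), and 6378 of the bases it spans are not part of its listed gene length of 6089. Its libraries read 119763, 102977 and 132403 in HLM23 against 23630, 31196 and 32509 in the WT, so that even the lowest HLM23 library was 3.17 times the highest WT library, the widest gap of any member. This gene alone took 0.691% ± 0.0393 (SD, n = 3) of all reads in HLM23, against 0.184% ± 0.0264 in WT libraries. Per length, its level was 1135 ± 64.6 FPKM in HLM23 and 302 ± 43.3 FPKM in the WT, which placed it 90th and 314th among all genes.

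The gene on chromosome 27 (308167 to 310522) was second by level, at 92501 ± 14296 normalised reads in HLM23 against 41244 ± 6500 in the WT (ratio 2.24). The gene on chromosome 16 (745122 to 748755) read 97529, 85275 and 77580 against 39307, 38405 and 39637, a ratio of 2.22 with a very even WT. On chromosome 30 (304904 to 307092), the fourth gene read 68027, 59217 and 74788 against 27866, 27734 and 31105, a ratio of 2.33. The WT libraries lay close together in the chromosome 16 and chromosome 30 genes. The chromosome 30 gene had the highest level per length of all members, with 2394 ± 118 FPKM (SD, n = 3) in HLM23 against 1112 ± 32.1 in WT libraries, 40th and 85th among all genes.

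The remaining 6 of the 10 most abundant members in HLM23 lay on chromosome 12 (865675 to 871540, 60799 ± 9614 against 15836 ± 3051, ratio 3.84, and 130634 to 136616, 50575 ± 17381 against 12304 ± 3724), chromosome 10 (522109 to 524508, 57168 ± 9795 against 27654 ± 3492, ratio 2.07), chromosome 6 (1153826 to 1157523, 37983 ± 11946 against 14419 ± 2586, ratio 2.63), chromosome 25 (37248 ± 8466 against 6932 ± 2826) and chromosome 8 (652937 to 656807, 31228 ± 6417 against 11444 ± 3374, ratio 2.73), all as normalised reads with SD and n = 3. Together the 10 held 47.4% of the members' reads in HLM23. The additional reads were concentrated as well: NO22G01810 alone gave 10.6% of the summed difference between the strains, the first 3 genes (NO22G01810 and those on chromosomes 27 and 16) gave 22.4%, and the first 10 gave 49.2%. In the list of the 100 genes with the highest FPKM, the members held 2 places in the WT and 5 in HLM23, and no member was among the first 10 in either strain.

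At the edges of the rule the values ran on without a break. The members with the lowest WT means, 1011, 1015 and 1021, were followed outside by genes at 999.95, 998 and 995 that met the rest of the rule. The lowest ratios inside were 2.0003, 2.0010 and 2.02, and the highest outside, with no overlap, were 1.9988, 1.9875 and 1.9859. A pair of genes was kept out by overlap alone, with a lowest HLM23 library at 0.996 and 0.962 of the highest WT library, and the narrowest gaps inside were 1.05, 1.05 and 1.11. The genes inside and outside each limit were therefore alike in the value that the limit used. In 53 members every HLM23 library was at least 2 times the WT mean, and in 21 the lowest HLM23 library was at least 2 times the highest WT library.

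The replicate 2 libraries stood closer together than the others. HLM23 replicate 2 was the lowest of its strain in 81 of 114 members (71.1%) and WT replicate 2 the highest of its strain in 99 (86.8%), with both in 70. Over all 3123 abundant genes these shares were 27.4% and 24.6%, and 12.3% for both. The median member read 0.800 of the mean of the other HLM23 libraries in HLM23 replicate 2, and 1.36 of the mean of the other WT libraries in WT replicate 2. The 178 abundant genes that were at most 1/2 of the WT mean with no overlap leaned the other way, with medians of 1.26 and 0.704. In both gene groups the replicate 2 libraries lay between the remaining libraries of the strains, as far as these genes show it. All 114 members were higher in HLM23 replicate 2 than in WT replicate 2, which the rule fixes, but the median ratio of that pair was 1.70, and 27 members reached a ratio of 2 in it. Without both replicate 2 libraries the median ratio of the members was 2.90, and 113 of them reached 2. The part that these libraries had in the results was not tested.

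**Figure D3:**
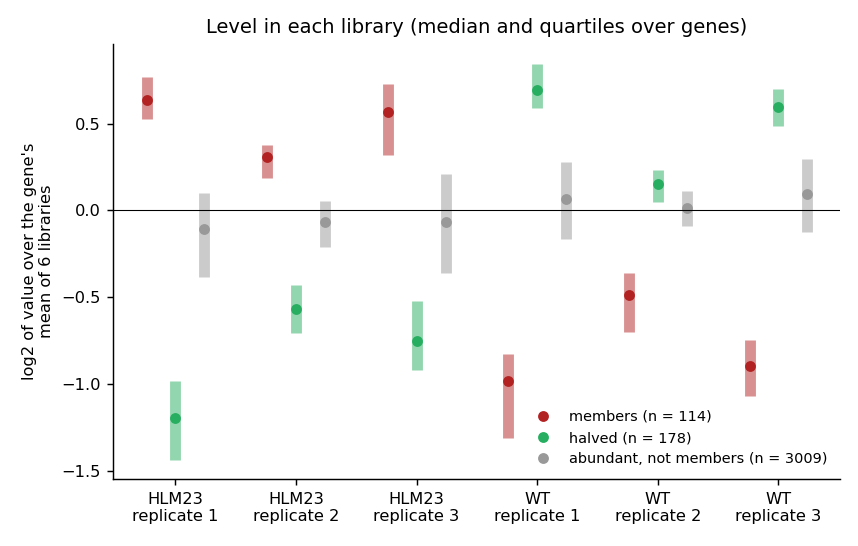
Level in each library as log2 of a gene's value over its mean in the 6 libraries, as the median (point) and quartiles (bar) over the 114 members, the 178 halved genes and the 3009 other abundant genes, which include the halved ones. For the members the medians are 0.64, 0.31 and 0.56 in HLM23 and -0.98, -0.49 and -0.90 in the WT, with replicate 2 nearest to 0 in both strains.

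Within HLM23, replicate 1 was highest in 63 members (55.3%) and replicate 3 in 51 (44.7%), and replicate 2 was highest in 0. Over all abundant genes these shares were 23.2%, 46.3% and 30.5%, so replicate 3 was near its background. Replicate 2 was lowest in 81, replicate 3 in 32 and replicate 1 in 1, beside 27.4%, 35.4% and 37.3% of all abundant genes. Genes highest in replicate 1 had a median length of 2331 bases and those highest in replicate 3 of 1869 bases. The median coefficient of variation between replicates was 19.5% in HLM23 and 20.9% in the WT, beside 15.1% and 11.4% over all abundant genes. The halved genes had medians of 25.3% and 21.7%, so a spread above that of the abundant genes was common to both groups chosen for a difference. The most uneven WT values were those of the gene at 297415 to 298447 on chromosome 5, which read 436, 1767 and 866 against 2625, 1998 and 2703 in HLM23.

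To read the difference in libraries that had no part in the choice, the rule was applied to 2 HLM23 and 2 WT libraries, and the chosen genes were read in the remaining library of each strain. The 9 ways of doing this share libraries and are not independent. Each chose between 74 and 142 genes, of which 68 to 106 were members. Of the chosen genes, 98.2% to 100% were higher in the left-out HLM23 library than in the left-out WT library, beside 39.2% to 46.0% of all genes with a WT mean of at least 1000 in the same choice. The direction was thus the same in the left-out libraries for nearly every chosen gene. Since the replicates may be technical, this describes their evenness and is not an independent check of the strain difference. The size held less evenly: a median of 73.7% of the chosen genes, over the 9 ways, were at least 2 times as high in the left-out pair, beside a median of 3.94% of all abundant genes. When both replicate 2 libraries were left out that share was 14.8% (21 of 142 genes, median ratio 1.58), beside 0.732% of all abundant genes in that pair. When both replicate 1 libraries were left out it was 93.2% (69 of 74 genes, median ratio 3.07), beside 6.88% of all abundant genes. With WT replicate 2 left out beside HLM23 replicates 1 and 3 it was 55.5% and 38.7%. Each share is from 1 library per strain, so none was tested.

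**Figure D4:**
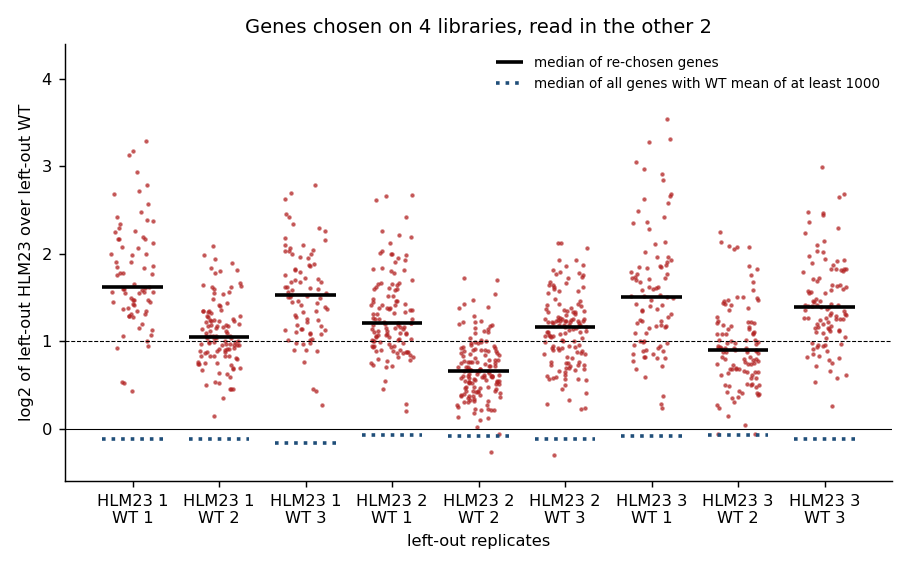
Log2 ratio of the left-out HLM23 to the left-out WT library for genes chosen on the other 4 libraries (red points), with their median (black bar) and the median of all genes with a WT mean of at least 1000 (dotted blue bar), for the 9 left-out pairs. The solid line marks equal values and the dashed line a ratio of 2; 98.2% to 100% of the points of each pair lie above the solid line, and the pair of replicate 2 libraries lies lowest.

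In structure the members lay close to the abundant genes as a whole. Their median gene length was 2095 bases, beside 2251 over all abundant genes, and ranged from 618 bases (chromosome 2, 1163240 to 1164442) to 12973 (chromosome 8, 433524 to 447903). A long gene can reach the read limit at a low level per length. The chromosome 8 gene had a mean of 5.06 FPKM in the WT, 7503rd among all genes. The members' median WT level was 68.0 FPKM, beside 58.4 over all abundant genes and 18.4 over all genes. When abundant genes were split by length into 5 equal classes, the members numbered, from shortest to longest, 20, 24, 31, 21 and 18. The halved genes were longer, with a median of 3024 bases and 65 of 178 in the longest class. The members' span exceeded the listed gene length by a median of 505.5 bases, taken here as intron sequence, beside 409 over all abundant genes. In 16 members (14.0%, exact 95% binomial interval 8.24% to 21.8%) span and length were equal, beside 16.5% of abundant genes and 28.5% of all genes. A difference of at least 1000 bases was found in 27 members (23.7%), beside 23.2% of abundant genes. There were 53 members on the plus strand and 61 on the minus strand. No test was run on these properties.

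All 30 chromosomes held at least 1 member. The share of a chromosome's abundant genes that were members ran from 1.25% on chromosome 22, with NO22G01810 as the only one of 80, to 8.33% on chromosome 30 (2 of 24). Chromosome 5 held the most members, with 10 of 175 abundant genes, and chromosome 15 held 8 of 103. The members were thus spread over the genome. Within 30000 bases of the start of a chromosome's coordinates or of its last listed gene end lay 6 members (5.26%), beside 4.16% of abundant genes.

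A few members were neighbours. In 3 pairs both genes were directly beside each other, so that 6 of 114 members (5.26%) had a member next to them, beside 3.04% of abundant genes and 2.38% of all genes. Under the alternatives to the rule the share ran from 0% (ratio of at least 3) to 9.17% (without HLM23 replicate 3). No share of abundant genes or of all genes was computed beside these other lists. On chromosome 8 the genes at 758851 to 764096 (ratio 2.96) and 764420 to 773074 (ratio 2.46) followed each other on the minus strand, 323 bases apart. On chromosome 9 the genes at 707249 to 709288 (2.35) and 709606 to 711366 (2.18) followed each other on the plus strand, 317 bases apart. The pair on chromosome 11 lay head to head and shared 725 bases: the gene at 728380 to 730851 had a ratio of 2.26 and the gene at 730127 to 733068 one of 3.07. The latter read 10330, 6538 and 5279 in HLM23 and 1603, 4119 and 1499 in the WT, an uneven profile in which replicate 1 of HLM23 and replicate 2 of the WT stood out. Whether reads in the shared stretch were counted by strand is not known here, so the values of this pair may not be separate. A further 3 pairs lay 2 to 5 gene places apart, among them NO01G03170 and the gene at 827833 to 829749 on chromosome 1 (ratio 2.16).

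In all, 15 members (13.2%) overlapped another gene, all on the opposite strand, beside 15.0% of abundant genes. In 13 of these 15 the overlapping gene was the less abundant one in HLM23. The largest overlap was 2143 bases, between the chromosome 25 gene of ratio 5.37 and a gene at 403746 to 406838 that was listed at a mean of 2.84 normalised reads in HLM23. The chromosome 12 gene of ratio 4.11 and the abundant chromosome 30 gene overlapped a partner by 53 and 13 bases. The 2 exceptions were on chromosome 11, described above, and on chromosome 26, where the gene at 365209 to 366560 (ratio 2.15) shared 392 bases with a gene at 363629 to 365600 of higher level.

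The genes directly beside the members were tested in a fit over all 9452 genes with a mean of at least 1 (limma on log2 of the value plus 1, Benjamini-Hochberg adjusted p under 0.05). Of the 220 tested neighbours that were not members themselves, 73 (33.2%) differed between the strains, beside 28.9% of all tested genes, so the share was near the background. Higher in HLM23 were 34 (15.5%, beside 14.5% of all), and lower were 39 (17.7%, beside 14.3%). When the libraries were instead scaled to one total, which shifted the median gene by -0.11 on the log2 scale, the split was 27 higher and 47 lower. The neighbours' median log2 fold change was -0.03, against 0.00 over all tested genes. Without HLM23 replicate 1, WT replicate 1 or WT replicate 3, the calls numbered 46, 46 and 42, beside 18.4%, 16.2% and 16.3% of all tested genes called. In these fits the split turned round, with 25 higher and 21 lower, 26 and 20, and 23 and 19. The split over all tested genes was not counted in these fits or with equal library totals. A change of split shared by all genes therefore cannot be told apart here.

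The calls were also counted by the orientation of the neighbour. In 72 divergent pairs, in which the genes start next to each other and point away, 17 neighbours were higher in HLM23 (23.6%) and 7 lower (9.72%); the median log2 change was 0.10. Beside the abundant genes that are not members, 223 divergent neighbours were higher and 304 lower (16.4%) of 1859 pairs. In 45 tandem pairs with the neighbour downstream of the member, 1 was higher (2.22%) and 10 were lower (22.2%), with a median of -0.16, beside 15.1% and 14.4% of 1017 such pairs of the other abundant genes. In 37 tandem pairs with the neighbour upstream, 7 were higher (18.9%) and 6 lower (16.2%), beside 12.6% and 16.3% of 1089. In 67 convergent pairs, which end towards each other, 9 were higher (13.4%) and 16 lower (23.9%), beside 14.3% and 15.2% of 1922. Neither the difference between orientations nor that from the other abundant genes was tested. Of the 17 divergent neighbours called higher, 14 lay less than 500 bases from the member, as did 53 of all 72 divergent neighbours. Without HLM23 replicates 1, 2 and 3 in turn, the 10 lower calls downstream were 3, 8 and 10. Without WT replicates 1, 2 and 3 in turn, they were 4, 8 and 4. In the same fits the higher calls among divergent neighbours ranged from 12 to 17. Without both replicate 2 libraries there were 5 lower calls downstream and 16 higher calls among divergent neighbours.

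**Figure D5:**
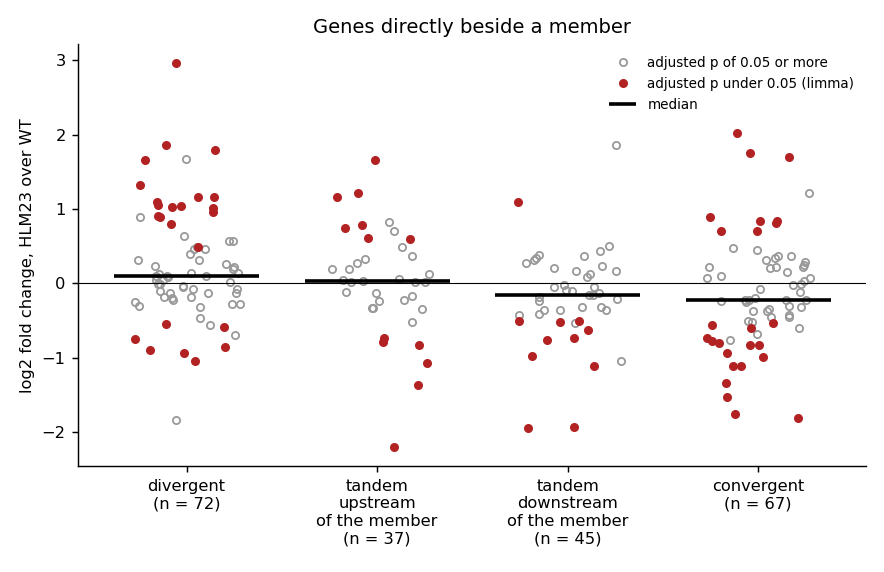
Log2 fold change of HLM23 over WT for the genes directly beside a member, by their orientation to it; filled points passed an adjusted p of 0.05 in limma, open points did not, and bars are medians. Filled points above 0 outnumber those below in divergent pairs (17 against 7), and the reverse holds for genes downstream in tandem (1 against 10).

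The strongest changes beside members were mostly in genes of lower level. The largest fitted rise was that of the divergent neighbour at 438764 to 440048 (chromosome 18), which went from 9.50 ± 8.23 normalised reads in the WT to 49.4 ± 18.7 (SD, n = 3) in HLM23; limma gave a log2 fold change of 2.96 ± 0.88 (SE) and an adjusted p of 0.026. Its fitted size is set in part by the pseudocount, since 1 WT library was at 0. The next was better measured: the convergent neighbour at 397562 to 401212 on chromosome 3 rose from 206 ± 112 to 769 ± 88.0 (2.03 ± 0.31 (SE) on the log2 scale, adjusted p of 0.00098 in limma). The other 3 of the 5 largest rises, on chromosomes 7 and 9, had HLM23 means of at most 51.7. Among them, the gene at 965071 to 966297 on chromosome 9 had an HLM23 mean of 11.8. It overlaps its member, which had a mean of 6180, by 224 bases, so its values may not be separate.

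The deepest fall was that of the gene upstream of a chromosome 7 member (898277 to 901037), which went from 1964 ± 693 in the WT to 436 ± 183 in HLM23 (SD, n = 3), a log2 fold change of -2.21 ± 0.33 (SE) with a limma adjusted p of 0.00094. The member beside it, at 895387 to 897593, had a ratio of 2.26, so the pair stood on opposite sides. On chromosome 2 the gene at 859573 to 860468, downstream of a member of ratio 2.13, fell from 1513 ± 457 to 448 ± 280 (-1.93 ± 0.40 (SE) on the log2 scale, adjusted p of 0.0047 in limma). The other 3 of the 5 deepest falls, on chromosomes 16, 28 and 2, were in genes with WT means of 31.4, 112 and 314. The last of them, at 1485249 to 1487296 on chromosome 2, overlaps its member by 88 bases.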

How the data were processed

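Per the labels' protocols, RNA from 22 ml of culture was extracted, sequenced as paired-end messenger RNA libraries, mapped and quantified by a sequencing company. Tools listed in the submitters' processing notes are HISAT2, featureCounts, fastp and DESeq2, with no versions. The 6 sample columns deposited by the authors hold a signal, called normalised reads here: in each library every value under 500 reads was a whole multiple of a common step (tolerance 0.001), the form that read totals take after division by 1 scaling factor. The FPKM deposited by the authors served as a level per length. For 6 of the 114 members it was computed with a length other than the one listed, beside 555 of the 3123 abundant genes. The log2 fold changes and p-values deposited by the authors gave an alternative. Samples were grouped by title. Tests used limma 3.58.1 in R 4.3.3 with a mean-variance trend, on all 6 libraries and 9452 genes with a mean of at least 1, and the fit was checked on simulated data. A count model was not run, because in 2 libraries the step was too close to 1 read for the check applied to accept recovered reads. Intervals cover counting error only. The members, the lists and the tests were chosen with earlier results of these data known. Genes to name were the 10 highest by ratio and by HLM23 mean, those at each limit, adjacent members, the shortest and longest, and the 5 largest changes in each direction beside members; the gene with the most uneven WT values and the overlapping genes were singled out after their values were seen. Gene lists by function could not be formed. The alternatives were other limits for the rule, equal library totals, left-out libraries, another pseudocount and filter, limma voom and a replicate block.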

Additional observations from a re-analysis of the deposited data

How the results depend on the processing

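Other limits changed the number of members from 114 to 180 with a WT mean of at least 500, 67 with at least 2000, 281 with a ratio of at least 1.5 and 20 with at least 3. Leaving out 1 library gave 92 to 130 genes, of which 88 to 112 were members, and equal library totals gave 84 (78 members). The authors' deposited comparison, with a log2 fold change of at least 1 and an adjusted p under 0.05, gave 114 genes, 113 of them shared. Without both replicate 2 libraries, an alternative chosen after seeing the data, there were 142 genes (95 shared). In that fit 62 neighbours were called (28.2%, beside 25% of all tested genes). The number of called neighbours, 73, was 37 at an adjusted p under 0.01 (16.8%, beside 13.8% of all tested genes). With 1 library left out it ranged from 42 without WT replicate 3 (19.1%, beside 16.3%) to 73 without HLM23 replicate 3 (33.2%, beside 28.7%). All of these fits had 1 library fewer, and the number depended on which library was left out. What set the number was not tested. With the replicate block the number of called neighbours was 70 (31.8%, beside 27.9% of all tested genes). The other alternatives gave 70 to 77 (31.8% to 34.8%, beside 27.8% to 31.7%). Deviations from the strain means correlated across strains at -0.07, -0.11 and 0.15 for numbers 1, 2 and 3, so this measure showed no pairing by replicate number. It does not capture the members and halved genes, in which the replicate 2 libraries of both strains stood closer together, as described above. The share of genes at least 2 times as high in left-out libraries was 71.1% with equal library totals. Median gene length was 2638 bases with a WT mean of at least 2000 and 2602.5 with a ratio of at least 3. Members had WT means of at least 1011 normalised reads, whereas several neighbours had fewer than 50, where depth limits the precision.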
